A study of Mus musculus with 10 samples.

Results

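The EGR and NR4A transcription factors and the NAB corepressors are 8 genes, Egr1, Egr2, Egr3, Nab1, Nab2, Nr4a1, Nr4a2 and Nr4a3. They were chosen by name from 54408 annotated genes, and all 8 passed the filter on low counts that left 13081 genes for testing. The material was RNA of P14 CD8 T cells, which carry a transgenic receptor for the gp33 peptide, taken from B16-gp33 melanomas growing under the skin of mice. The T cells of both groups were of C57BL/6 background and carried Nfat5 flox/flox alleles. The WT group (5 libraries) lacked Cre (CD4-Cre-/-). The group labelled NFAT5 KO (5 libraries) was CD4-Cre+/-, and the Cd4 promoter that drives this Cre is active in developing αβ T cells, so the deletion is not limited to the tumour or to the effector stage. After 48 hours of activation in culture the cells were transferred into tumour-bearing mice, and sorting of the CD8 fraction from the tumours followed on day 7. Whether the libraries stem from separate animals is not stated in the labels, and p-values therefore describe the scatter among libraries, which may include technical scatter.

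Library titles begin with 678 (2 WT and 3 NFAT5 KO libraries) or 679 (3 WT and 2 NFAT5 KO libraries), a number whose meaning is not given. Libraries held 22444310 to 32001285 estimated counts, and 11 CD8 T cell marker genes summed to 9107 to 10700 CPM. Nfat5 RNA itself ranged from 9.20 to 18.3 CPM in the WT group and from 11.6 to 26.8 CPM in the other, a log2 fold change of -0.04 (SE 0.27, edgeR adjusted p = 0.957). The sources used here do not say which exons the floxed alleles lose, so this count over the whole gene does not check the deletion, and group names below are those of the labels.

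EGR proteins are zinc finger transcription factors whose genes are switched on within minutes of T cell receptor engagement, through the MAP kinase pathway and serum response factor. In T cells, EGR2 and EGR3 are known for limiting activation and for a part in anergy. NAB1 and NAB2 bind EGR proteins and repress their target genes, and NAB2 is itself an EGR target. NR4A proteins are orphan nuclear receptors that act without a known physiological ligand, follow calcium and calcineurin signals from the receptor, and are known for promoting dysfunction of CD8 T cells in tumours. A fluorescent reporter of Nr4a1 is widely used to read recent receptor signalling.

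Promoter sequence was searched for motifs of factors known to act on these genes. The RefSeq promoter table (GRCm38.p6) held 6 of the 8 genes. Egr1 and Egr3 are named only. Bases upstream of the start are printed for Egr2 and for the NR4A genes, because the windows of each family hold motifs of known inputs more than once, with GENCODE exons left out. The windows are chr10:67537619-67537868 on the plus strand for Egr2, chr15:101266596-101266845 on the plus strand for Nr4a1, chr2:57124004-57124253 on the minus strand for Nr4a2 and chr4:48045055-48045152 on the plus strand for Nr4a3. Capitals mark 2 motifs on either strand: the core of the cAMP response element (TGACG, read CGTCA on the other strand) and the CArG box bound by serum response factor.
Egr2: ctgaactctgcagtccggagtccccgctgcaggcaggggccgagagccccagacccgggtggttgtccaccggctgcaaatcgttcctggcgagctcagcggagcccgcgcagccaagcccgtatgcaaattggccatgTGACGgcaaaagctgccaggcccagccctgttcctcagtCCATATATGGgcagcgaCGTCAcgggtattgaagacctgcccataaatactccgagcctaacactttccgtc
Nr4a1: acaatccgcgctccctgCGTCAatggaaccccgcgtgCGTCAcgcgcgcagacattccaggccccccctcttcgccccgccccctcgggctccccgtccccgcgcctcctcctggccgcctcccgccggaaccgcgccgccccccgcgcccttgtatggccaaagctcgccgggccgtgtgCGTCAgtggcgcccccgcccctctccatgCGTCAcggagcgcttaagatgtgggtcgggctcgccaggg
Nr4a2: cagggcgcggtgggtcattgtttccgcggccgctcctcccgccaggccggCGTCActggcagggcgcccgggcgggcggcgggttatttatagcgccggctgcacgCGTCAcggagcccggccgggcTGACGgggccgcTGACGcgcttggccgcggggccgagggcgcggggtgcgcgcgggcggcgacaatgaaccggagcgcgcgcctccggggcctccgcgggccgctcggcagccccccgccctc
Nr4a3: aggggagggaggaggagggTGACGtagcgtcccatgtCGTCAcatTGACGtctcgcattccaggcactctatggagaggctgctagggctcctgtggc

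Each of the 3 NR4A windows held the cAMP response element core 4 times within 250 bases upstream of the RefSeq start, of which 3 fall in the bases printed for Nr4a3. Of all 32851 RefSeq promoter windows of that length, 17.8% held the core at least once and 0.137% held it at least 4 times. The Egr2 window held the core at 111 and 55 bases before the start and a CArG box at 72 bases, and 1.47% of all windows held a CArG box. The 8-base palindrome of the full cAMP response element (TGACGTCA, in 1.55% of windows) was in none of these windows. The Nr4a2 window also held a MEF2 site, found in 2.92% of windows. The EGR site GCGTGGGCG, found in 0.536% of windows, occurred 2 times in the Nab1 window and in no other window of a member. All but 19 bases of the Nab1 window lie in GENCODE exons. Both sites lie downstream of the first base of Nab1-201, which held 76.9% of Nab1 counts in WT and 76.3% in NFAT5 KO libraries. The NR4A monomer site AAAGGTCA (1.34% of windows) was in no window of a member. The NFAT core GGAAA, found in 55.6% of windows, occurred 1 time in the printed Egr2 window and 1 time in the Nr4a2 window. The tonicity element TonE, which NFAT5 binds (4.31% of windows), was found only in the window of another RefSeq start of Egr2, 65 bases before it, and that start lies 303 bases upstream of the printed one. These matches are descriptions of letters and not of bound sites. The printed Egr2 start is that of transcripts holding 85.0% of Egr2 counts in WT and 84.7% in NFAT5 KO libraries. The printed Nr4a1 start holds 96.8% and 96.7%, whereas the printed Nr4a2 start holds only 10.1% and 10.01%, since most Nr4a2 counts were given to transcripts that begin further downstream.

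With NFAT5 KO cells compared with WT cells, 4 of the 8 genes rose and none fell. The genes that rose were Egr1, Egr2, Egr3 and Nr4a1, with log2 fold changes from 0.68 to 1.28 (edgeR quasi-likelihood test, Benjamini-Hochberg adjusted p from 0.0108 to 0.0361). Of all 13081 genes, 1179 (9.01%) passed the same test, with 442 (3.38%) higher and 737 (5.63%) lower in NFAT5 KO libraries. Nr4a2, Nr4a3 and Nab2 had positive changes that did not pass (adjusted p from 0.0612 to 0.0828), and Nab1 had a change of -0.07. The median change of the 8 genes was 0.64 and that of all genes 0.02 on the log2 scale, and 7 of 8 changes were positive against 51.8% over all genes. Groups did not overlap only for Egr3, and over all genes 3.92% had every NFAT5 KO library above every WT library. With DESeq2's Wald test 7 of the 8 genes passed, all but Nab1, where 14.5% of all genes passed. In bulk RNA, a larger share of cells that express a gene and more RNA per cell cannot be told apart.

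**Figure D1:**
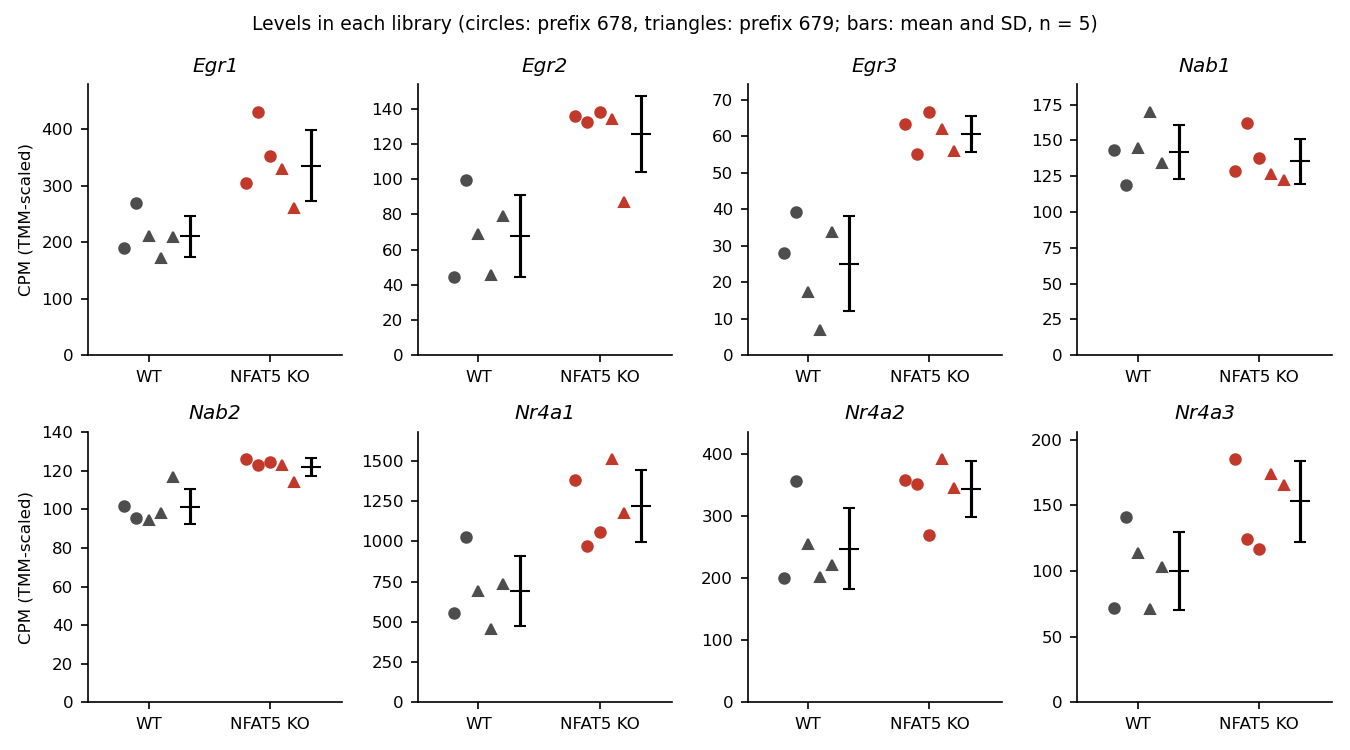
TMM-scaled CPM of each gene (y axis, from 0) in each WT and NFAT5 KO library, with a circle for titles starting 678, a triangle for 679, and the mean with SD (n = 5) beside each group. Only Egr3 has all 5 NFAT5 KO libraries above all 5 WT libraries, while Nab1 covers the same range in both.

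Egr1 (ENSMUSG00000038418, GRCm38 chromosome 18, 34859823 to 34864984, plus strand) had the highest level per length of the EGR genes and is a usual first marker of the MAP kinase response. Its level was 189, 269, 211.5, 171 and 209 CPM in the WT group, given in the order of the titles 678_2, 678_4, then 679_3, 679_4 and last 679_5. The NFAT5 KO group, in the order 678_3, 678_5, 678_6 and then 679_2 and 679_6, held 304, 431, 352, 329 and 260.1 CPM. All values below follow this order of libraries. Only NFAT5 KO 679_6 lay below a WT library, WT 678_4. The means were 209.9 ± 36.9 and 335 ± 63.3 CPM (SD, n = 5 each), a log2 fold change of 0.68 (SE 0.14, edgeR adjusted p = 0.0108). Egr1 passed in each of the 10 fits that left out 1 library.

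Egr2 (ENSMUSG00000037868, GRCm38 chromosome 10, 67535475 to 67542188, plus strand), the family member best known for restraining T cell activation, was at 44.5, 99.5, 69.1, 45.4 and 78.8 CPM in WT libraries. The NFAT5 KO libraries held 136, 132.5, 138, 134 and 87.3 CPM. The first 4 NFAT5 KO libraries lay close together above every WT library, and NFAT5 KO 679_6 lay below WT 678_4. The change was 0.90 (SE 0.22, edgeR adjusted p = 0.0220), or 1.86-fold. It did not pass without WT 678_2, WT 679_3, NFAT5 KO 678_6 or NFAT5 KO 679_2, with an adjusted p of at most 0.0582 and a change of at least 0.77.

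Egr3 (ENSMUSG00000033730, GRCm38 chromosome 14, 70077203 to 70082614, plus strand), which acts alongside Egr2 in T cells, had the lowest level per length of the 8 genes and the highest fold change. WT libraries held 27.9, 39.3, 17.4, 6.84 and 33.8 CPM, and NFAT5 KO libraries held 63.5, 55.3, 66.8, 62.2 and 56.0 CPM. The NFAT5 KO libraries were tight, whereas the WT libraries spread widely, with WT 679_4 far below the others. The means were 25.1 ± 13.0 and 60.8 ± 4.99 CPM (SD, n = 5 each), a change of 1.28 (SE 0.34, edgeR adjusted p = 0.0361), or 2.43-fold. Egr3 passed in only 3 of the 10 fits that left out 1 library, those without WT 678_4, WT 679_4 or WT 679_5, and its adjusted p reached 0.0937 with a change of at least 1.03. Counting protein-coding transcripts only, its change was 1.46 and it did not pass.

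Nab1 (ENSMUSG00000002881, GRCm38 chromosome 1, 52457294 to 52500679, minus strand), the corepressor present before stimulation in many cells, was at 143, 118.5, 145, 170.1 and 134 CPM in WT libraries. NFAT5 KO libraries held 129, 162, 137, 127 and 122 CPM. The groups covered the same range, and the change was -0.07 (SE 0.11, edgeR adjusted p = 0.759). Its sign turned within the libraries titled 678 (0.12) and with an offset for transcript length (0.0013).

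Nab2 (ENSMUSG00000025402, GRCm38 chromosome 10, 127660918 to 127668568, minus strand), the corepressor that EGR proteins induce as their own brake, was at 101.5, 95.6, 94.5, 98.2 and 117 CPM in WT libraries. It was at 126, 123.2, 124, 122.8 and 114 CPM in NFAT5 KO libraries. WT 679_5 lay above NFAT5 KO 679_6, and the other libraries did not overlap. The difference was small beside those of the EGR genes, 0.27 (SE 0.08), and did not pass (edgeR adjusted p = 0.0612). It passed without WT 679_5 and in no other fit that left out 1 library.

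Nr4a1 (ENSMUSG00000023034, GRCm38 chromosome 15, 101254269 to 101274795, plus strand) encodes NUR77 and was the most abundant of the 8 genes. WT libraries held 554.0, 1026, 689, 455 and 737 CPM, and NFAT5 KO libraries held 1383, 973, 1056, 1513 and 1176 CPM. The overlap came from WT 678_4, which lay above NFAT5 KO 678_5. The means were 692 ± 217 and 1220 ± 224.8 CPM (SD, n = 5 each), a change of 0.82 (SE 0.19, edgeR adjusted p = 0.0201), or 1.76-fold. It did not pass without WT 678_2, WT 679_3 or NFAT5 KO 679_2, with an adjusted p of at most 0.0599 and a change of at least 0.69.

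Nr4a2 (ENSMUSG00000026826, GRCm38 chromosome 2, 57106830 to 57124003, minus strand) encodes NURR1, best known from dopamine neurons and induced by receptor signals in T cells as well. It was at 201, 357, 255, 203 and 221 CPM in WT libraries and at 358, 351, 269, 392.3 and 344.5 CPM in NFAT5 KO libraries. WT 678_4 stood within the NFAT5 KO range, and the other 4 WT libraries lay below all NFAT5 KO libraries. The difference of 0.47 (SE 0.16) did not pass (edgeR adjusted p = 0.0828).

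Nr4a3 (ENSMUSG00000028341, GRCm38 chromosome 4, 48045153 to 48086447, plus strand) encodes NOR1, whose induction in CD8 T cells also follows the strength of receptor signalling. It was at 72.1, 141.5, 114, 71.5 and 103 CPM in WT libraries and at 185.5, 124, 117, 174 and 165 CPM in NFAT5 KO libraries. The overlap again came from WT 678_4, which lay above NFAT5 KO 678_5 and 678_6. The difference of 0.61 (SE 0.20) did not pass (edgeR adjusted p = 0.0760). Without WT 678_4, Nr4a2 and Nr4a3 both passed and 6 of the 8 genes did, while only Egr1 passed without WT 678_2, WT 679_3 or NFAT5 KO 679_2.

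Libraries stood high or low for several of these genes at once. WT 678_4 was the highest WT library for all 6 EGR and NR4A genes and the lowest for Nab1. WT 679_4 was the lowest WT library for Egr1, Egr3, Nr4a1 and Nr4a3. NFAT5 KO 679_6 was the lowest of its group for Egr1, Egr2, Nab1 and Nab2. Profiles were compared as log2 CPM centred on each gene's mean over the 10 libraries. The root mean square difference was 0.17 between Nr4a1 and Nr4a3, 0.19 between Nr4a2 and Nr4a3 and 0.26 between Nr4a1 and Nr4a2. For Egr1 and Egr2 it was 0.27, and for Egr2 and Egr3 0.59, and Egr3 had its lowest level in WT 679_4.

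**Figure D2:**
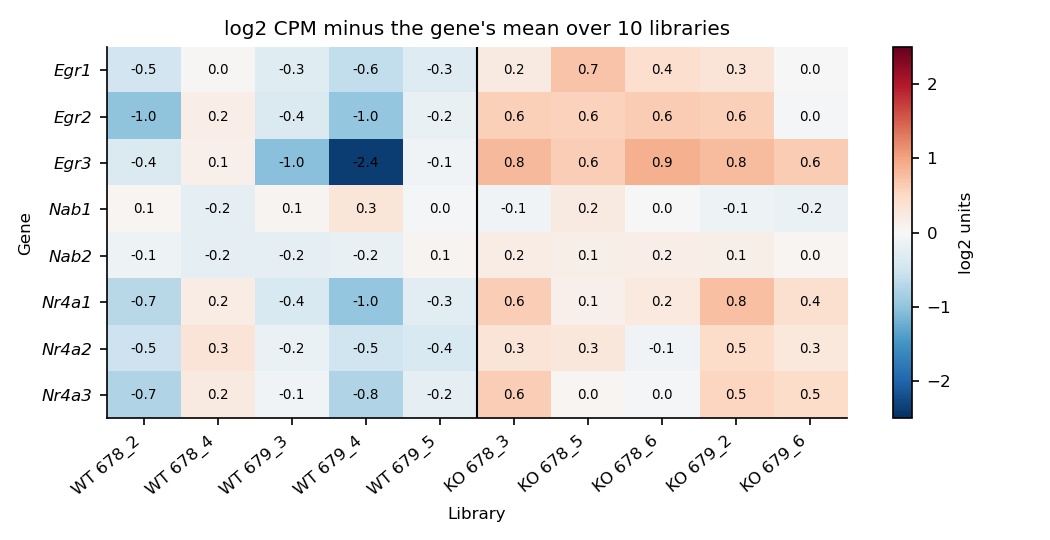
log2 CPM of each gene (rows) in each library (columns, WT left of the line, NFAT5 KO right of it) minus the gene's mean over the 10 libraries, in log2 units. The EGR and NR4A rows are mostly below 0 in WT and above 0 in NFAT5 KO libraries, WT 678_4 is the WT exception, and both NAB rows are nearly flat.

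Within each title prefix the 6 EGR and NR4A genes and Nab2 had positive changes. For Egr1 the change was 0.66 within 678 and 0.57 within 679, and for Egr2 0.91 and 0.77. For Egr3 it was 0.88 and 1.61, for Nr4a1 0.52 and 1.09, for Nr4a2 0.22 and 0.70, and for Nr4a3 0.41 and 0.82. The NR4A genes and Egr3 thus had the higher values within 679, but the edgeR interaction of genotype and prefix passed for no gene (0 of 13081, with 377 at an unadjusted p under 0.05), and its lowest unadjusted p among the 8 genes was 0.0989, for Nab1. In edgeR fits within a prefix, 0 of the 8 genes passed in 678 (4 at an unadjusted p under 0.05), where 0 of all genes passed (1449 at an unadjusted p under 0.05). In 679, 0 of the 8 passed (6 at an unadjusted p under 0.05) and 325 of all genes did.

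**Figure D3:**
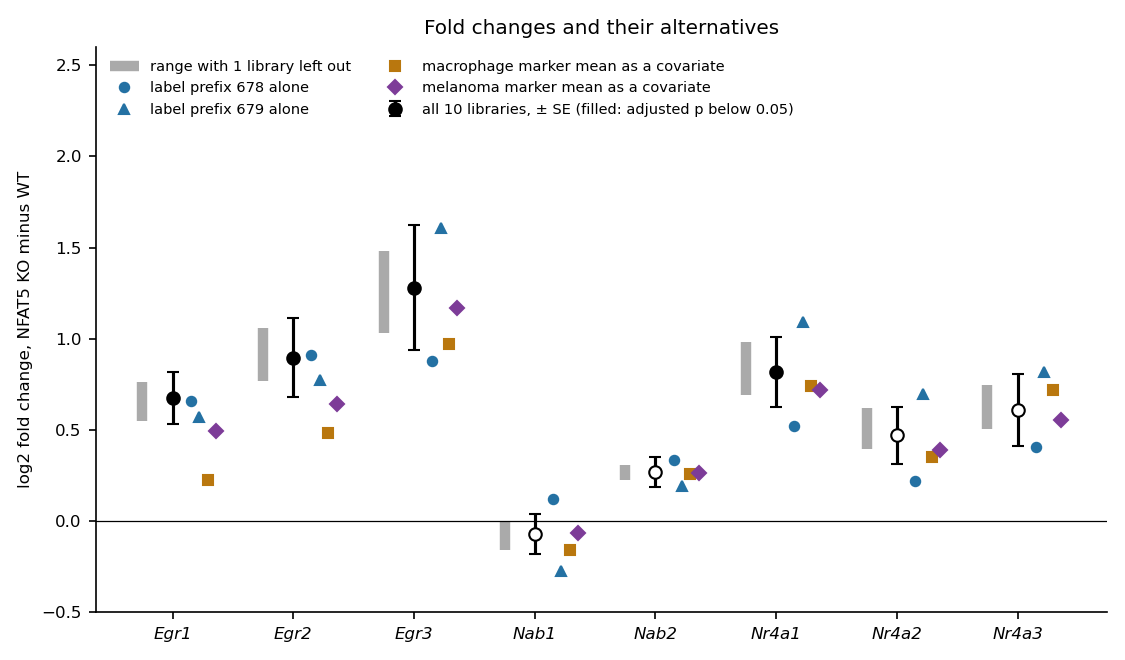
log2 fold change of NFAT5 KO minus WT (y axis) for each gene over all 10 libraries with its SE (filled where the edgeR adjusted p is below 0.05), with the range over fits that leave out 1 library as a grey bar and the values within each title prefix and with marker covariates as coloured points. All points of the EGR and NR4A genes lie above 0, and Egr1 has its lowest value, 0.23, with the macrophage covariate.

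Levels of different genes can be compared only per length, as TPM. In WT libraries the order was Nr4a1 (364 ± 120.1 TPM), Nr4a2 (143 ± 43.7), Nr4a3 (104 ± 31.9), Egr1 (89.5 ± 18.0), Nab1 (67.7 ± 6.09), Nab2 (53.8 ± 3.06), Egr2 (37.5 ± 12.8) and Egr3 (11.0 ± 5.60), as mean and SD over 5 libraries. Ranges of neighbours in this order overlapped except between Nr4a1 and Nr4a2, Nab1 and Nab2, and Egr2 and Egr3. In NFAT5 KO libraries Nr4a1 again led with 644 ± 114.6 TPM, followed by Nr4a2 (204 ± 24.3), Nr4a3 (153 ± 26.5) and Egr1 (144 ± 34.8). Egr2 (70.1 ± 12.9) now stood level with Nab1 (69.4 ± 15.1) and Nab2 (65.9 ± 5.75), and Egr3 (25.7 ± 2.98) was again the lowest. Nr4a1 made up 59.4% of the TPM of the NR4A genes in WT and 64.2% in NFAT5 KO libraries, with overlapping ranges. Egr3 made up 7.57% and 11.0% of the TPM of the EGR genes, from 2.58% to 9.80% in WT and from 7.91% to 13.5% in NFAT5 KO libraries, which also overlap. These shares are descriptions without a test. Nr4a3 TPM is summed over transcripts of unlike length. Of its WT counts, 30.9% went to Nr4a3-204 (895 bases) and 18.1% to Nr4a3-202 (1290 bases), both annotated as not coding. The coding Nr4a3-201 (5720 bases) and Nr4a3-203 (5068 bases) held 35.4% and 15.6%. Short transcripts weigh more per length, so the Nr4a3 TPM and the NR4A shares do not give the level of coding Nr4a3 RNA.

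Salmon also divides each gene's counts among its transcripts. The share of the most abundant transcript was tested for 7 genes, all but Nr4a1, whose Nr4a1-201 held 96.7% in WT libraries. None passed, but the smallest p of this exact test is 0.00794, or 0.0556 adjusted over 7 genes for a gene alone at it, so no gene could pass alone. Egr1-202 held 90.1 ± 0.52% of Egr1 counts in WT and 88.8 ± 0.86% in NFAT5 KO libraries (two-sided exact permutation test, p = 0.0159, adjusted p = 0.111, n = 5 each). For the other 6 genes the adjusted p was 0.738 in the same exact test. Egr3 was the least even: its protein-coding Egr3-204 held 44.1, 55.5, 63.6, 8.78 and 72.5% in WT libraries and 81.0, 68.7, 62.1, 49.0 and 61.3% in NFAT5 KO libraries. In WT 679_4 only 17.8 counts went to Egr3-204, while the retained-intron transcript Egr3-202 took 180 counts or 88.5%. A retained-intron transcript keeps an intron that the coding transcripts lose. A large share of Nr4a3 counts went to transcripts annotated as not coding, 49.0 ± 6.15% in WT and 45.8 ± 3.09% in NFAT5 KO libraries, against 17.2% and 18.4% for Nr4a2. Transcripts of a gene share most of their sequence, so these shares rest on the model that divides the reads.

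**Figure D4:**
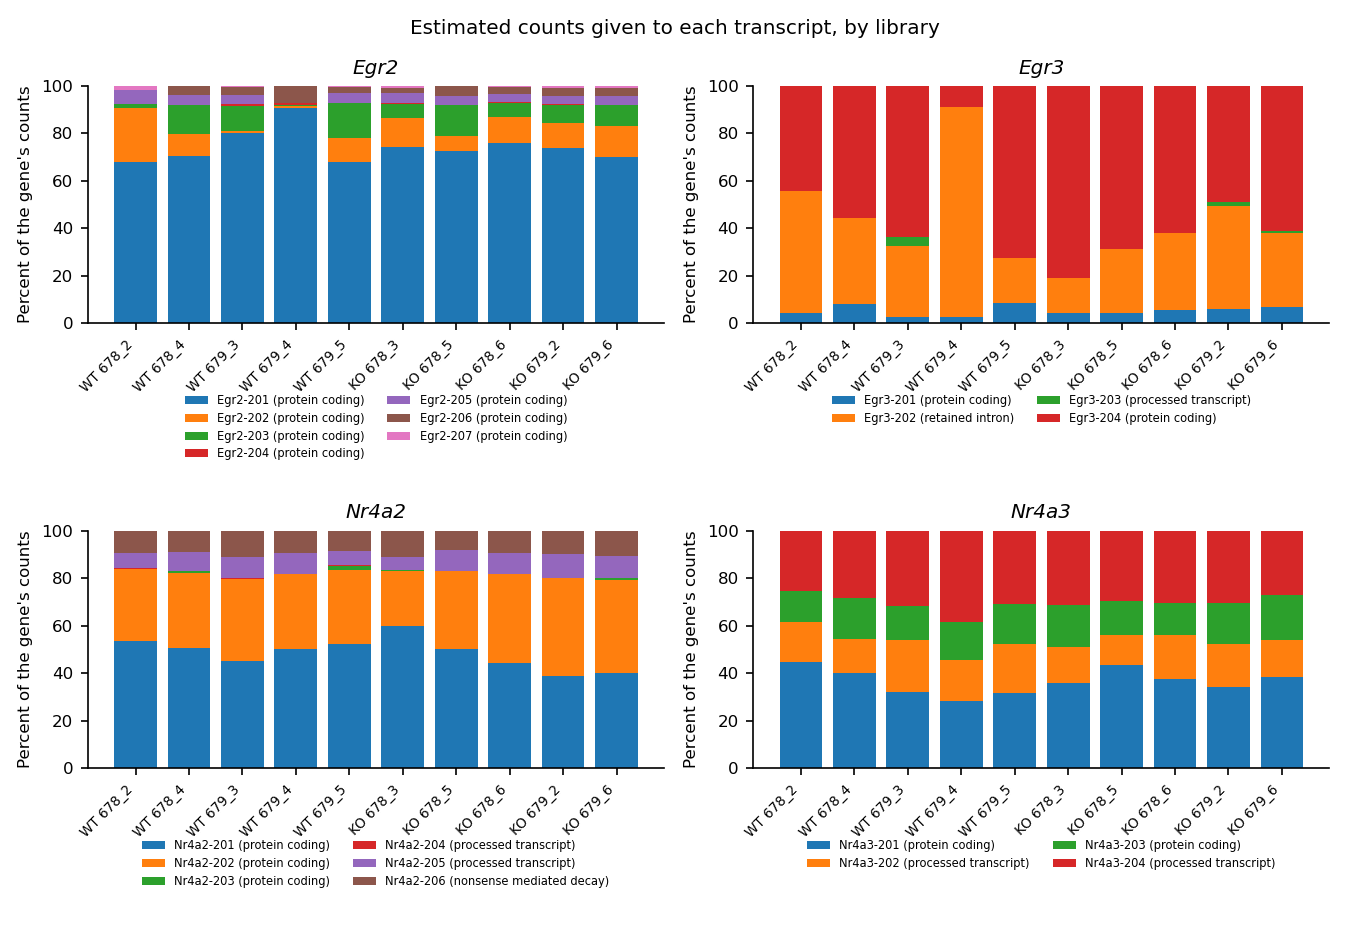
Percent of each gene's estimated counts (y axis) given to each annotated transcript (colours) in each library (x axis) for Egr2, Egr3, Nr4a2 and Nr4a3. Egr3 in WT 679_4 stands apart with 88.5% in the retained-intron transcript Egr3-202, while the other panels vary little between groups.

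Of 27 tested upstream factors, which cover the SRF, MEF2, CREB, calcineurin and MAP kinase steps, 1 rose (3.7%, against 3.38% of all genes) and none fell in edgeR, and 7 had an unadjusted p under 0.05. Their median change was 0.01 on the log2 scale. The gene that rose was Crem, a cAMP-responsive factor whose short forms repress through the element printed above, from 61.7 ± 13.0 to 129.9 ± 46.7 CPM (SD, n = 5 each), a change of 1.07 (SE 0.21, edgeR adjusted p = 0.00793). Among 10 tested paralogs and binding partners none passed in edgeR (2 at an unadjusted p under 0.05, and 1 past the threshold with DESeq2), and the smallest p was that of Crebbp, a coactivator with acetyltransferase activity (0.61, SE 0.21, edgeR adjusted p = 0.0922). The fourth EGR gene, Egr4, was low in both groups, at 2.18 ± 1.03 and 2.34 ± 0.78 CPM. Without WT 678_4 or WT 679_3 the number of upstream factors that rose was 2, and without WT 678_4 1 partner passed and 1 upstream factor fell.

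Of 26 other immediate early genes tested, 13 rose (50%, against 3.38% of all genes), 13 did not pass and none fell in edgeR, with a median change of 0.57. Among those that did not pass, Dusp4, a MAP kinase phosphatase gene named after its values were seen, had a change of -0.60 (SE 0.18, edgeR adjusted p = 0.0635). Dusp4 fell past the threshold with library size alone, the 5 CPM filter, DESeq2's Wald test, and without WT 678_4 or NFAT5 KO 679_6. The MAP kinase phosphatase gene Dusp1 rose by 0.83 (SE 0.11, edgeR adjusted p = 0.000758), from 291 ± 32.5 to 518 ± 69.1 CPM. The early activation receptor gene Cd69 rose by 1.33 (SE 0.21, 167 to 418 CPM), the antiproliferative gene Btg2 by 0.65 (SE 0.10) and Zfp36, which destabilises cytokine mRNAs, by 0.80 (SE 0.14), each past the edgeR threshold and in all 10 fits that left out 1 library. The number that rose was 7 without WT 678_2 or NFAT5 KO 679_2 and 8 without WT 679_3. It was 7 with the melanoma covariate, 4 within the label prefix 679, and 0 within 678 or with the macrophage covariate.

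Genes tied to EGR2 or EGR3 in T cells changed in both directions. Of 21 tested, 6 rose (28.6%, against 3.38% of all genes) and 2 fell (9.52%, against 5.63%), with a median change of 0.30. The number that rose was 3 with the label prefix as a block, 2 with the transcript-length offset or the melanoma covariate, and 1 within the label prefix 679. The numbers that rose and that fell were both 0 within 678 or with the macrophage covariate. Of all genes, 0 passed within 678 and 6 with that covariate. Those with the smallest p fell: Nrn1, the neuritin gene, from 44.8 ± 6.62 to 12.1 ± 2.71 CPM (-1.89, SE 0.18) and Nrgn, the neurogranin gene, from 85.4 ± 39.3 to 4.94 ± 3.39 CPM (-4.11, SE 0.46). Fasl, the death ligand, rose by 0.52 (SE 0.12) and the cytokine signalling inhibitor Socs3 by 0.47 (SE 0.11). Both genes that fell passed in every fit that left out 1 library, whereas the number that rose ranged from 0 (without NFAT5 KO 679_6) to 5 (without NFAT5 KO 678_3). That number was 1 without NFAT5 KO 678_6, WT 679_3 or WT 679_5, 2 without WT 678_2 or NFAT5 KO 678_5, and 3 without NFAT5 KO 679_2.

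Of 20 tested genes tied to NR4A factors in exhausted T cells, 3 fell (15%, against 5.63% of all genes) and 1 rose (5%, against 3.38%), and 7 had an unadjusted p under 0.05. Their changes went both ways, with a median of 0.01, and their mean log2 CPM was 6.64 to 6.79 in the WT group and 6.10 to 6.59 in the NFAT5 KO group, which do not overlap. Cd244a, an inhibitory receptor gene, fell by 3.10 (SE 0.35) on the log2 scale, from 17.5 ± 8.48 to 2.04 ± 0.62 CPM. Tox, a transcription factor of exhausted cells, fell by 1.82 (SE 0.24), from 76.7 ± 26.5 to 21.8 ± 4.22 CPM. Pdcd1, which encodes PD-1, fell by 0.91 (SE 0.19), and the cytokine receptor gene Il21r rose by 0.63 (SE 0.13), each past the edgeR threshold. The number that rose was 2 without NFAT5 KO 678_6, with the label prefix as a block or with DESeq2's Wald test. The number that fell was 5 with DESeq2's Wald test or limma-voom. Both numbers were 0 within the label prefix 678 or with the macrophage covariate. Of all genes, 0 passed within 678 and 6 with that covariate. The group with the higher Nr4a1 RNA was thus the group with the lower Tox and Pdcd1 RNA, while 16 of the 20 genes did not pass.

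**Figure D5:**
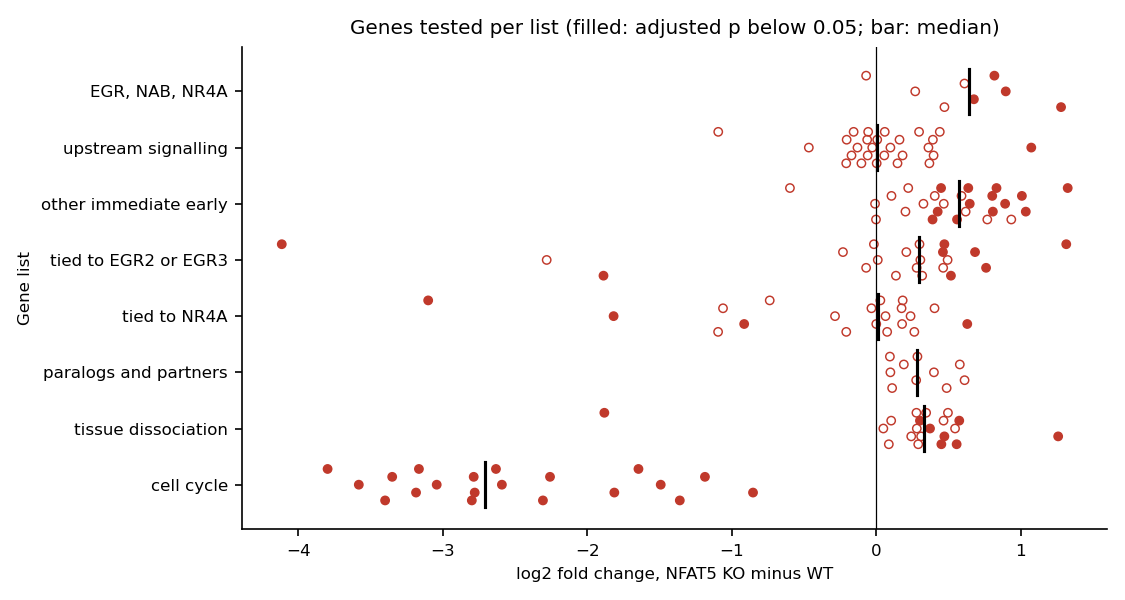
log2 fold change of NFAT5 KO minus WT (x axis) of each tested gene in 8 gene groups (y axis), filled where the edgeR adjusted p is below 0.05, with a bar at the group's median. The other immediate early genes have a median of 0.57 and the 8 EGR, NAB and NR4A genes one of 0.64. Upstream factors are centred near 0, and all 20 cell cycle genes lie below 0.

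Genes on lists for tissue dissociation and for the cell cycle also differed between the groups. Of 20 heat shock and stress genes known to rise during tissue dissociation, 7 rose (35%, against 3.38% of all genes) and 1 fell (5%, against 5.63%) in edgeR. Of the 20, 19 had positive changes and 14 an unadjusted p under 0.05, with a median change of 0.33. Socs3 is on this list and on the list tied to EGR2 or EGR3, and counts as risen in both. Gadd45b rose by 1.26 (SE 0.20), Ppp1r15a by 0.45 (SE 0.09) and Hspa8 by 0.37 (SE 0.08). The number that rose was 4 without WT 678_2 or with the melanoma covariate, 0 with the macrophage covariate and 11 with DESeq2's Wald test. The mean log2 CPM of these 20 genes was 7.59 to 7.80 in WT and 7.60 to 8.25 in NFAT5 KO libraries, which overlap. That of the other immediate early genes was 7.16 to 7.52 and 7.85 to 8.01, which do not. The list tied to NR4A factors, given above, did not overlap in the other direction, and the list tied to EGR2 or EGR3 overlapped (6.09 to 6.45 and 6.01 to 6.48). The part of tissue dissociation in the levels of the EGR, NR4A and other immediate early genes was not tested. All 20 cell cycle genes fell (100%, against 5.63% of all genes, median -2.70), among them Mcm2 (-1.19, SE 0.10), Aurkb (-3.04, SE 0.28), Cdk1 (-2.63, SE 0.25) and Ccnb2 (-3.80, SE 0.37). All 20 also fell in every fit that left out 1 library. The number that fell was 17 within the label prefix 679, 0 within 678 and 1 (Aurkb) with the macrophage covariate. Of all genes, 0 passed within 678 and 6 with that covariate. The part of proliferation in the levels of the EGR and NR4A genes was not tested.

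Markers of other cells were low beside the T cell markers. The mean log2 CPM of 14 macrophage genes was 1.95 ± 0.62 in WT and 0.03 ± 1.12 in NFAT5 KO libraries (two-sided exact permutation test, p = 0.0159, adjusted p = 0.0741 over 14 measures, n = 5 each), and their summed level was 178 to 262 and 118 to 190.3 CPM. Ctss, which T cells also express, held 115 and 92.9 CPM of it, and Adgre1, the F4/80 gene, was at 2.27 and 0.15 CPM. Of the 14 genes only Itgam stood higher in NFAT5 KO libraries (11.1 and 13.3 CPM), and Mrc1 was nearly level (0.62 and 0.59 CPM). With this mean as a covariate 0 of the 8 genes passed (2 at an unadjusted p under 0.05) and 6 of all genes did in edgeR, and the changes were 0.23 for Egr1, 0.48 for Egr2, 0.97 for Egr3 and 0.74 for Nr4a1. The mean itself differs between the groups, so the covariate and the genotype cannot be told apart in that fit. Melanoma genes (-1.54 ± 0.63 and -2.08 ± 0.65, exact p = 0.246, n = 5 each) had Sox10 and Slc45a2 at 0 in all libraries, and with their mean as a covariate Egr1 and Egr2 passed. B cell genes (-0.49 and -1.12, exact permutation p = 0.00794, adjusted p = 0.0556, n = 5 each) had Pax5 at 0 in all libraries, with Ighm holding 419 and 257 CPM. CD8 T cell genes stood at 9.35 ± 0.07 and 9.54 ± 0.03 (exact permutation p = 0.00794, adjusted p = 0.0556, n = 5 each). Among them Cd8a (1446 and 1420 CPM), Cd8b1 (1556 and 1435) and Cd3g (974 and 876) stood lower in NFAT5 KO libraries. The other genes of this list stood higher, such as Trac (1053 and 1488 CPM). None of the 14 measures passed after adjustment. The smallest p this exact test can give is 0.00794, and at least 3 of the 14 measures would have to reach it for any to pass, so this says nothing of equal levels: the groups did not overlap for the B cell and CD8 T cell means. The parts of B cell and melanoma RNA in the result were not tested beyond these values.

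The genes with the most similar profiles were sought among 9632 other protein-coding genes over the 10 libraries. Closest to Egr1 were Setd1b (root mean square difference 0.10 on the log2 scale), a histone H3K4 methyltransferase gene, and Gpr171 (0.12). Closest to Egr2 were Relb (0.16), an NF-κB subunit gene, and Dnajb2 (0.19). For Egr3 they were Smad3 (0.34), which carries TGF-β signals, and Tg (0.37). For Nr4a1 they were Irs2 (0.11), an insulin receptor substrate gene, and Dusp5 (0.13), a phosphatase gene for ERK. For Nr4a2 they were Elmsan1 (0.12) and Cpne3 (0.13), and for Nr4a3 Abcg1 (0.18), a sterol exporter gene, and Tsr2 (0.19). For the NAB genes they were Cnp (0.06) and Mob3a (0.07) beside Nab1, and Rpl7l1 (0.07) and B4galnt1 (0.08) beside Nab2. The differences scale with how much a gene varies, from a standard deviation of 0.17 for Nab1 to 1.04 for Egr3 in log2 CPM, so they cannot be ranked between genes.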

How the data were processed

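The authors deposited a Salmon table per library, whose 140919 transcripts each have an estimated count and a TPM value, per the file headers. Salmon 0.14.1 is named with GRCm38.p6 and mm10 in the submitters' processing notes. Annotation, strandedness and trimming: not given in the sources used here. Because Salmon assigns shared reads with a statistical model, transcript and paralog values are less certain than gene sums. The deposited estimated counts are not normalized, and the deposited TPM values are scaled by effective length.

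Transcripts were matched to GENCODE M21 by identifier (99.38%; the rest held 0.191% to 0.228% of a library's counts), and counts were summed per gene and rounded. Genes were filtered with filterByExpr, scaled with TMM and passed to edgeR 4.0.16 (R 4.3.3) for its robust quasi-likelihood test over 5 WT and 5 NFAT5 KO libraries with no covariate. P-values were adjusted over 13081 genes with the Benjamini-Hochberg method at 0.05. SE is |log2 fold change| over the root of the F statistic. For log2 CPM, 2 counts were added as a prior. Biological variation between libraries (edgeR's BCV) was 35.7%. Every pair of the 10 libraries differed by more than counting noise (chi-square per degree of freedom of at least 27.4). Transcript shares and marker means were tested over the 252 arrangements of the labels. The alternatives were other scalings, filters and tools (DESeq2 1.42.0, limma 3.58.1), protein-coding transcripts, title prefixes, marker covariates and leaving out each library.

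The members and gene lists were chosen with earlier results of these data known. Besides the 8 members, the text names up to 4 genes past the threshold with the smallest p per list (or the 1 with the smallest p), and the 2 protein-coding genes with the most similar profile to each member. A gene that this rule names is not reported here. Egr4, Dusp4 and the marker genes were named outside this rule, after their values were seen. On simulated counts of 12677 genes the test recovered 49 of 86 genes changed by 1 and 80 of 101 changed by 2 on the log2 scale.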

Additional observations from a re-analysis of the deposited data

Results flagged for a closer look

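In NFAT5 KO 679_6, Egr2 stood at 87.3 CPM, the lowest of its 5 libraries, and the nearest of the others was at 132.5 CPM. That gap was 0.885 of the whole range, above the 95% critical value of Dixon's test for 5 samples. Nab2 stood at 114 CPM in the same library, with the nearest of the others at 122.8 CPM and a gap of 0.722 of the range. Chance marks about 1 in 20 groups, and 30 groups were examined. NFAT5 KO 679_6 was also the lowest of its group for Egr1 and Nab1. Without it, Egr2 still passed and Nab2 did not.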

How the results depend on the processing

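With DESeq2 size factors and with library size alone the same 4 members passed. Genes past the threshold numbered 0 within prefix 678, 325 within 679, 580 with the melanoma covariate, 6 with the macrophage covariate and 1893 with the Wald test, and 696 (without WT 678_2) to 1276 (without WT 678_4) with 1 library left out. Members past it numbered 0 within 678, 0 within 679, 2 with the melanoma covariate, 0 with the macrophage covariate and 7 with the Wald test, and 1 (without WT 678_2, WT 679_3 or NFAT5 KO 679_2), 2 (without NFAT5 KO 678_6) to 6 (without WT 678_4) with 1 library left out.

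Below the threshold came, within 678, within 679 and with the macrophage covariate, Egr1 (0.66, 0.57, 0.23), Egr2 (0.91, 0.77, 0.48), Egr3 (0.88, 1.61, 0.97) and Nr4a1 (0.52, 1.09, 0.74). With the melanoma covariate Egr3 (1.17) and Nr4a1 (0.72) did too, and Egr3 also with no filter (1.27), the length offset (1.21) and protein-coding transcripts (1.46). Past it came Nab2 (0.27), Nr4a2 (0.47) and Nr4a3 (0.61) with the Wald test and Nr4a3 (0.63) with limma-voom. Nab1 turned positive with the length offset (0.0013) and within 678 (0.12). The fits within a prefix hold 5 libraries each, and otherwise the cause was not tested.

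With 1 library left out, fold changes ranged from 0.55 to 0.76 for Egr1, 0.77 to 1.06 for Egr2, 1.03 to 1.48 for Egr3, 0.69 to 0.98 for Nr4a1, 0.23 to 0.31 for Nab2, 0.40 to 0.62 for Nr4a2 and 0.50 to 0.75 for Nr4a3. Differences in the share of the most abundant transcript ranged from -4.08 to 1.66 points for Egr2, -1.25 to 0.52 for Nab1 and -3.23 to 0.58 for Nab2. Over all 1135 alternative values, 954 kept their direction and side of the threshold, or their count within 1.5 times. Alternatives for list counts and list genes were chosen after seeing the data. No paired analysis was possible because the groups share no replicate number. The lowest count of a member in any library was 203, for Egr3.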
